A study of Mus musculus with 2 samples.

Results

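Cholesterol synthesis, uptake and efflux genes were examined in mouse skin as a set of 30 genes, chosen by name from the pathway and drawn up with the ratios of these arrays known: 18 enzymes of the synthetic pathway, 5 regulators of the SREBP transcription factors, 3 sterol carriers and 4 genes of cholesterol efflux. They are 30 of 27594 genes or transcripts with a probe on the array, and because of that choice the counts below describe the set and support nothing beyond it. Skin RNA of Pla2g2f-Tg/+ mice, which carry a transgene for the secreted phospholipase Pla2g2f, was set against that of littermate controls. The mice were 25 days old and C57BL/6 in background, and a pool of RNA was made from 4 animals of 1 genotype. Which promoter drives the transgene is not stated in the labels. A transgenic and a control pool were hybridised together to each of 2 two-colour arrays. On array 1 the transgenic RNA carried Cy5 and the control RNA Cy3, and on array 2 the dyes were exchanged. Nothing in the labels shows that the second array used new pools, so the arrays count as 1 replicate, no p-value can be given, and the spread beside a value is the technical difference between the arrays.

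Cells make cholesterol from acetyl-CoA through mevalonate, farnesyl diphosphate, squalene and lanosterol. When the sterol content of the endoplasmic reticulum is low, Scap carries the SREBP precursors to the Golgi, where they are cut and released to activate these genes, and when sterols are plentiful the Insig proteins hold Scap back. Oxysterols activate the nuclear receptors LXR alpha and LXR beta, which raise the transport of cholesterol out of the cell. In skin, the epidermis builds its water barrier from cholesterol, ceramides and fatty acids, and sebaceous glands secrete sterols and wax esters.

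Of the 30 members, 27 were measured, meaning that on array 1 some probe for the gene was well above background in either channel. Signals are dye-normalised intensities in arbitrary units. Of these, 20 were above 0 on both arrays on the log2 scale of transgenic over control, 1 was below 0 on both, and 6 had different signs on the 2 arrays. Among all 10456 measured genes, 35.3% were above 0 and 35.7% below 0 on both. At least 1.5-fold higher on each array were 12 members, against 8.26% of all measured genes, and 0 were at least 1.5-fold lower, against 3.8%. At least 2-fold higher on each array were 3 members, against 3.72% of all genes, and 0 were 2-fold lower, against 1.68%. The members' median log2 ratio was 0.58, and that of all measured genes was -0.0079. Of the 27, 25 were well above background in both channels, and these included 11 of the 12 and 3 of the 3. Among all genes well above background in both channels, 6.69% were 1.5-fold higher and 2.64% were 2-fold higher.

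The scale bears on every direction below. The 10 spike-in control probes had their ratios turned to transgenic over control like the others. Their log2 ratios averaged 0.55 on array 1 and 0.39 on array 2, or 0.47 over both. Centring on them put the median gene at -0.48. Before the sign of array 2 was turned, their ratios on the 2 arrays correlated at 0.9996, so differences between these probes followed the dye and not the pool. How far the mean of each array also holds a part that follows the dye was not tested. On that scale 15 members were above 0 and 8 below 0 on both arrays, against 10.3% and 77.5% of all genes. At least 1.5-fold higher on each array were 3 members, all among the 12 above, against 3.34% of all genes. All 12 stayed above 0, which the 1.5-fold rule fixed in advance, since the shift was smaller than 1.5-fold on each array. Of all genes, 1.64% were 2-fold higher and 4.55% were 2-fold lower on that scale. Values below are on the arrays' own scale. Pla2g2f itself gave a signal of 683 in the transgenic and 471 in the control channel of array 1. Its log2 ratios were 0.54 and 0.34 on arrays 1 and 2. Both were slightly below the spike-in means of the same arrays, so with spike-in centring Pla2g2f was not higher on either array. The labels do not say whether its probe reads the transgene. The keratinocyte genes Krt5, Krt14 and Krt1 were well above background in both pools.

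**Figure D1:**
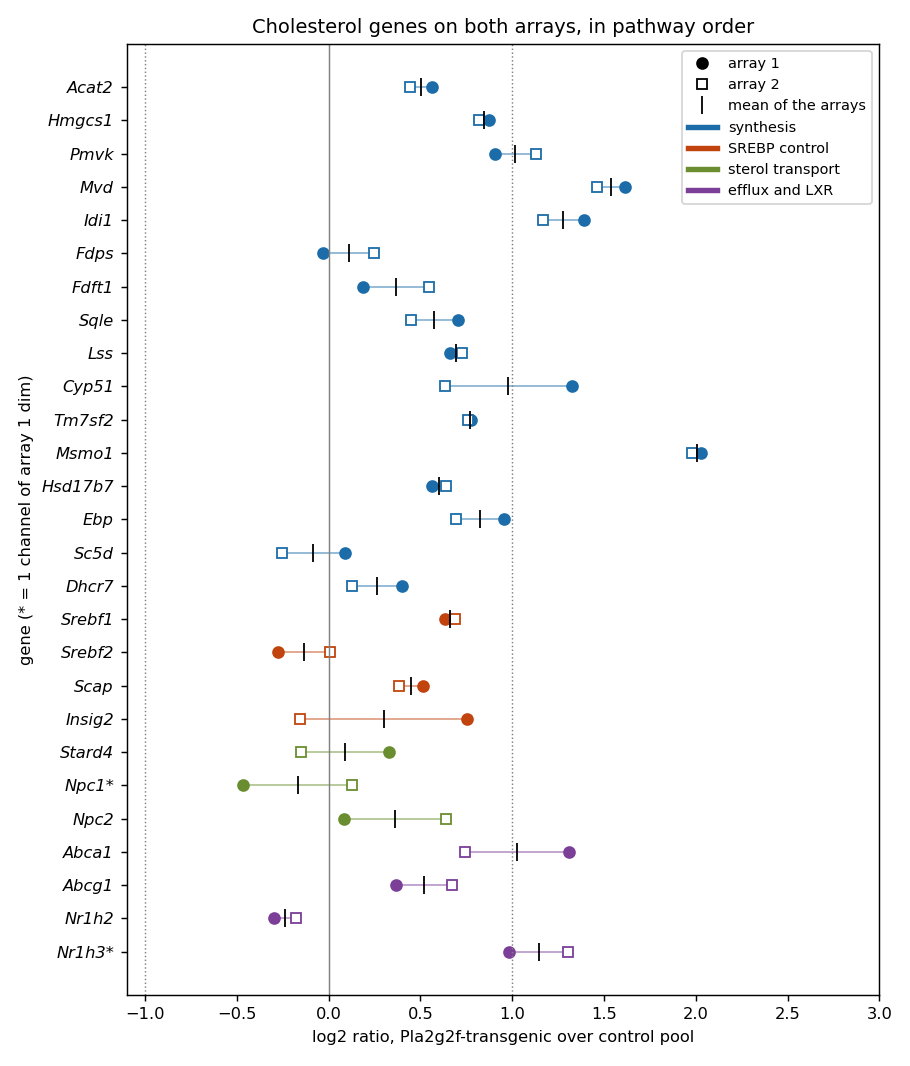
Log2 ratio of the transgenic over the control pool (x axis) for the 27 measured members (y axis, in pathway order) on array 1 (filled circles) and array 2 (open squares), with the mean as a bar and dotted lines at 2-fold. Msmo1 and Mvd stand farthest to the right, 1 member, Nr1h2, lies left of 0 on both arrays, and centring on the spike-ins would move every mean left by 0.47.

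The first 7 enzymes lead from acetyl-CoA to farnesyl diphosphate. Of 6 measured, 2 were 2-fold higher on each array, 2 more were 1.5-fold higher, and their median log2 ratio was 0.93. Mvd, the decarboxylase that makes isopentenyl diphosphate, gave a signal of 1223 in the transgenic and 399 in the control channel of array 1. The 2 arrays gave log2 ratios of 1.61 and 1.46, so that it rose 2.91-fold on average. The probe (NM_138656) lies at mm8 chr8:125319940-125319999. Idi1, which isomerises isopentenyl diphosphate, gave signals of 9051 in the transgenic and 3457 in the control channel. The arrays gave log2 ratios of 1.39 and 1.17, a 2.42-fold rise. The array design places the Idi1 probe on mm8 chromosome 2, whereas the RefSeq table places the gene on chromosome 13, and this was the only measured member whose brightest probe was so placed.

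Pmvk, the kinase of phosphomevalonate, stood just short of the 2-fold rule. It gave signals of 7869 in the transgenic and 4203 in the control channel, with log2 ratios of 0.90 and 1.13 and a mean 2.02-fold difference. A second, adjoining Pmvk probe averaged 1.03, beside 1.02 for the first. Hmgcs1, the synthase of hydroxymethylglutaryl-CoA at the head of the mevalonate pathway, had signals of 16928 in the transgenic and 9241 in the control channel, and its arrays were close, at 0.87 and 0.82. Both genes passed the 1.5-fold rule. Acat2, the cytosolic thiolase that starts the pathway, had signals of 423 and 286 in the transgenic and control channels and log2 ratios of 0.56 and 0.44, above 0 on both arrays but short of 1.5-fold. Fdps, which makes farnesyl diphosphate, stood apart from its neighbours. Its signals were 2179 in the transgenic and 2226 in the control channel, the ratios were -0.03 and 0.25, and its second probe averaged -0.07. Mvk, the mevalonate kinase, was not measured: its 2 probes were not well above background in either channel.

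The 3 enzymes from farnesyl diphosphate to lanosterol were all above 0 on both arrays, with a median of 0.58, and 1 passed the 1.5-fold rule. Fdft1, the squalene synthase at the entry to sterols proper, had signals of 1277 in the transgenic and 1123 in the control channel. Its log2 ratios of 0.19 and 0.54 turned to a mean of -0.10 when centred on the spike-ins. Sqle, the squalene epoxidase, lay at 0.70 on array 1 (signals of 3315 in transgenic and 2037 in control skin) and at 0.45 on array 2. Lss, which closes squalene epoxide into lanosterol, passed the 1.5-fold rule at 0.66 and 0.73, from signals of 644 and 407 in the transgenic and control channels. A second Lss probe averaged 0.74, although its own arrays gave 0.27 and 1.21 and its control channel was dim on array 1.

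Enzymes that turn lanosterol into cholesterol showed the widest range. Of 7 measured among 8, 1 was 2-fold higher, 3 more were 1.5-fold higher, and the median was 0.77. Msmo1 (Sc4mol on the array), an oxidase that takes part in the removal of methyl groups from the sterol ring, had the highest ratio of the 27 measured members. Its signal was 26205 in the transgenic and 6418 in the control channel of array 1, and the arrays gave 2.03 and 1.98, a mean 4.01-fold rise that was 1.54 on the log2 scale when centred on the spike-ins. The probe (NM_025436) lies at mm8 chr8:67610377-67610436. Cyp51, the lanosterol demethylase that acts earlier, gave signals of 796 in the transgenic and 318 in the control channel. Its brightest probe lay at 1.32 and 0.63 and its other measured probe at 0.94 and 1.52, so the arrays put the probes in opposite order while both averaged near 2-fold (0.98 and 1.23).

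Tm7sf2, a sterol reductase, lay at 0.78 and 0.76, with signals of 1448 in the transgenic and 845 in the control channel. Ebp, the sterol isomerase, lay at 0.96 and 0.69 from signals of 11845 and 6099 in the transgenic and control channels. Both passed the 1.5-fold rule. Hsd17b7, the ketosteroid reductase that works in the same demethylation cycle as Msmo1, missed it narrowly on array 1, with 0.56 and 0.64 and signals of 1733 in transgenic and 1174 in control skin, while its other probe averaged 0.98. Dhcr7, the reductase of the final step in one branch, lay at 0.40 and 0.13, from signals of 2820 and 2138 in the transgenic and control channels. Sc5d, the desaturase just before it, lay at 0.09 and -0.26, from signals of 1269 and 1194 in the transgenic and control channels. Centred on the spike-ins, Dhcr7 was at -0.20 and Sc5d at -0.55. Nsdhl, the decarboxylating dehydrogenase next to Msmo1, was not measured by any of its 4 probes. Over the 16 measured enzymes of the whole pathway the median was 0.73, with 14 above 0 on both arrays and 2, Fdps and Sc5d, of mixed sign. It was 0.26 when centred on the spike-ins.

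Of the 18 enzymes, 15 had a promoter in a RefSeq table of build GRCm38.p6, which holds 250 bases before and 50 after each start. The 3 genes that were 2-fold higher are shown with Hmgcs1, on the strand of the gene, 5′ to 3′. Capitals mark CCAAT, the box bound by NF-Y, a partner of SREBP, on either strand (ATTGG in reverse), and TCACNCCAC, a sterol regulatory element. The Hmgcs1 promoter is at chr13:119690101-119690400 (+ strand), that of Mvd at chr8:122443373-122443672 (- strand), that of Idi1 at chr13:8885356-8885655 (+ strand) and that of Msmo1 at chr8:64733529-64733828 (- strand).
Hmgcs1: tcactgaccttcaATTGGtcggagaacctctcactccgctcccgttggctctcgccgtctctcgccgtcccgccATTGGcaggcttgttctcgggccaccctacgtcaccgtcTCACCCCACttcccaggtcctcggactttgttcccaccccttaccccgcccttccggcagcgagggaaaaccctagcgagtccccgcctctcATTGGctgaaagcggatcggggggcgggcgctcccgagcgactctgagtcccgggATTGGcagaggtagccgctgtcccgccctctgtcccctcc
Mvd: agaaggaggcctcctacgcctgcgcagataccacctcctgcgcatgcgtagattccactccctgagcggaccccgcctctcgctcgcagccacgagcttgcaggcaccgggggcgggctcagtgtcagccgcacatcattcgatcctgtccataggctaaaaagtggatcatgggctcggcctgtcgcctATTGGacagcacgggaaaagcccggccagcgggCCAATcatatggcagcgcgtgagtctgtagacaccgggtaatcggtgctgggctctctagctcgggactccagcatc
Idi1: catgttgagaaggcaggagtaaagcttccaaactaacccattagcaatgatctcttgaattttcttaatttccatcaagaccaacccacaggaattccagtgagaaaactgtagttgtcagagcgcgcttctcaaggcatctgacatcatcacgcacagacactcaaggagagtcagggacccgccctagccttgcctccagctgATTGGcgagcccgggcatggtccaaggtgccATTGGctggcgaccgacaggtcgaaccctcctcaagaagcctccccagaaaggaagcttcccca
Msmo1: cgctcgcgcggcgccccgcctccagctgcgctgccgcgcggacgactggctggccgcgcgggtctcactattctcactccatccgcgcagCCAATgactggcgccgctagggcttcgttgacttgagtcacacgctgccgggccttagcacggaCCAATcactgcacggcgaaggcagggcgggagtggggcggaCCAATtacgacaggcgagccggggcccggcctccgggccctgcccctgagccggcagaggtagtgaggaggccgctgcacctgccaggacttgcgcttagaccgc

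The Hmgcs1 promoter holds 4 CCAAT boxes, 1 of them after the start, Msmo1 holds 3, and Mvd and Idi1 hold 2 each. In Msmo1 the boxes begin 160, 96 and 55 bases before the start, in Mvd 60 and 27, and in Idi1 45 and 14. The sterol regulatory element of Hmgcs1 begins 137 bases before the start. In all, 14 of the 15 synthesis genes had a CCAAT box, Acat2 being without one, against 42.4% of the 7589 measured genes with a promoter and 37.4% of all 32851 promoters. The boxes were also present in Sc5d and Dhcr7, whose ratios were small. GGGCGG, the box of the factor Sp1, was in 14 of 15, against 69.1% of measured genes and 35.7% of all promoters. TCACNCCAC was in 1 of 15, against 1.46% and 1.24%, and the looser TCACNNNAC, which contains it, in 5 of 15, against 13.3% and 11.2%. The E-box CACGTG was in 3 of 15, against 12.2% and 7.15%. A repeat bound by LXR, in its exact form of AGGTCA followed after 4 free bases by AGGTCA, was in 0 of the 24 members with a promoter. It was also in 0 of the 7589 measured genes with a promoter, and in 0.0152% of all promoters. So rare a pattern cannot set the members apart, and looser forms of it were not searched. All were searched on both strands, genes with several starts had more bases to match, and the motifs were chosen after the ratios were known. A match is a description of the letters only.

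Among the 5 regulators of SREBP, 4 were measured and 1 passed the 1.5-fold rule, with a median of 0.37. Srebf1, which encodes the SREBP-1 proteins that favour fatty acid genes, gave signals of 6407 in the transgenic and 4133 in the control channel. The arrays were close, at 0.63 and 0.69, a 1.58-fold difference. It was read by 1 probe, and its transcripts were not told apart. Srebf2, whose product favours cholesterol genes, had signals of 5919 in the transgenic and 7162 in the control channel of its brightest probe, and ratios of -0.28 and 0.01. Its other 2 measured probes averaged 0.03 and 0.44, so the probes lie on both sides of 0 and no direction can be given.

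Scap, the escort of SREBP, lay at 0.51 and 0.38, with signals of 4359 in the transgenic and 3055 in the control channel, and at -0.02 when centred on the spike-ins. Insig2, which retains Scap, had the largest disagreement between the arrays of the 27 measured members: its brightest probe lay at 0.75 on array 1, from signals of 2637 and 1565 in the transgenic and control channels, and at -0.15 on array 2. Its other measured probe lay at 0.45 and 0.31, and its mean of 0.38 was close to the 0.30 of the first. Insig1, a target and a brake of SREBP, was not measured. Its 2 probes were not well above background in either channel of array 1, and the brighter gave -0.01 on array 1 and 1.44 on array 2. Differences of over 0.5 log2 units between the arrays were seen for 5 of the 27 measured members, Cyp51, Insig2, Npc1, Npc2 and Abca1, against a median difference of 0.26 over these 27 and 0.23 over all measured genes.

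**Figure D2:**
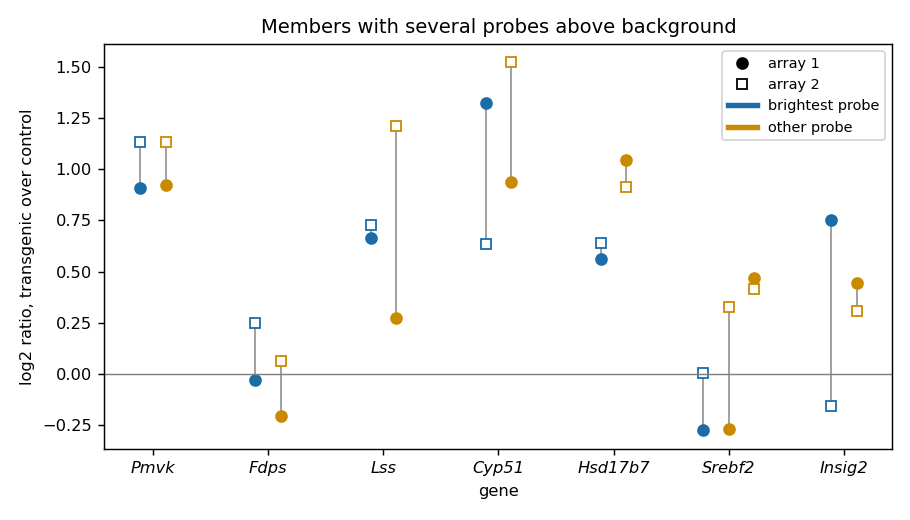
Log2 ratio of the transgenic over the control pool (y axis) for each probe above background of the 7 members with several such probes (x axis), on array 1 (filled) and array 2 (open), with the brightest probe in blue and others in orange. The probe means of Fdps and Srebf2 lie on both sides of 0, and in none (0) of the 7 genes do probe means differ by 1.5-fold or more.

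Sterol carriers had small ratios or ratios that differed in sign between the arrays, with a median of 0.09 and 0 of 3 past 1.5-fold. Npc2, which hands cholesterol on inside lysosomes, lay at 0.09 and 0.64, from signals of 1780 and 1677 in the transgenic and control channels. Its partner in the lysosomal membrane, Npc1, had a transgenic signal not well above background on array 1. It lay at -0.47 there, from signals of 289 in transgenic and 399 in control skin, and at 0.13 on array 2. Stard4, a cytosolic sterol carrier, had signals of 813 and 648 in the transgenic and control channels and ratios of 0.33 and -0.15. Centred on the spike-ins, all 3 means were below 0.

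Of the 4 efflux genes, 2 passed the 1.5-fold rule and the median was 0.77. Abca1, the transporter that loads cholesterol onto apolipoprotein A-I, had signals of 5391 in the transgenic and 2174 in the control channel and ratios of 1.31 and 0.74, a mean 2.04-fold difference that passed the 1.5-fold rule. Abcg1, which passes cholesterol to HDL, lay at 0.37 and 0.67 from signals of 448 in the transgenic and 348 in the control channel, above 0 on both arrays but short of 1.5-fold. Nr1h3, which encodes LXR alpha, lay at 0.98 and 1.31, with a mean 2.21-fold difference. Its signal was 474 in the transgenic channel of array 1. Its control signal of 240 was not well above background, though it exceeded the lowest signal so classed, 198, and so the 1.98-fold ratio of array 1 is no strict lower bound. Nr1h2, which encodes LXR beta, had signals of 327 in the transgenic and 402 in the control channel and ratios of -0.30 and -0.18, which made it the 1 measured member below 0 on both arrays. The 2 receptor genes thus lay on opposite sides of 0 on each array, and centring on the spike-ins gave 0.68 for Nr1h3 and -0.71 for Nr1h2.

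Other genes around the pathway were taken from lists. The fatty acid synthesis list, many of whose genes are targets of SREBP-1, had 8 of 13 measured genes 2-fold higher, 0 lower, and a median of 1.30. With spike-in centring 4 were 2-fold higher and 1 lower, and the median was 0.83. Scd1, a desaturase, rose 4.24-fold, the elongase Elovl6 rose 4.19-fold, the acetyl-CoA carboxylase Acacb 3.96-fold and the acetyl-CoA synthetase Acss2 3.15-fold. Scd2, a desaturase prominent in brain, had ratios of -0.68 on both arrays, the only gene of the list 1.5-fold lower. Cholesterol ester and sulfate genes had 2 of 5 measured members 2-fold higher and a median of 0.86: Soat1, which esterifies cholesterol, averaged 2.25 and the carboxylesterase Ces1d 1.79. The lipases Lipe and Nceh1, which can free cholesterol from its esters, averaged 0.86 and 0.75.

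The isoprenoid branch, which draws on the same farnesyl diphosphate, had 1 of 9 measured genes 2-fold higher and a median of -0.02. That gene was Pdss1, a subunit of the enzyme that makes the side chain of ubiquinone, with log2 ratios of 2.02 and 2.07, and its second probe averaged 2.61. Ggps1, the geranylgeranyl diphosphate synthase, averaged -0.49, Fnta 0.41 and Rabggta, dim in the transgenic channel, -0.39. Genes of SREBP processing and sterol sensing had 1 of 10 measured genes 2-fold higher and a median of 0.18. It was Tmem97, an endoplasmic reticulum protein that binds Npc1, at 1.02 and 1.11. Pgrmc1 averaged 0.87, Faf2 -0.45 and Erlin1 0.34. With normexp and loess, 0 genes of either list were 2-fold higher, and with spike-in centring 1 of the isoprenoid genes and 0 of the processing genes were.

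Lipoprotein uptake and sterol carrier genes had 2 of 17 measured genes 2-fold higher and a median of 0.36, or -0.11 with spike-in centring. They were Cd36, a scavenger receptor, at 1.11 and 1.23, and Stard5, a sterol carrier whose control channel was dim, at 1.03 and 1.60. Scp2 averaged 1.14, and Osbp, dim in the transgenic channel, averaged -0.64. LXR targets and lipoprotein export genes had 0 of 9 past 2-fold and 4 past 1.5-fold, with a median of 0.37, or -0.095 with spike-in centring. These 4 were Lpl at a mean of 1.21, Lpcat3 at 0.96, Apoe at 0.91 and Apoc1 at 0.78. The oxysterol list had 2 of 4 measured genes 2-fold higher. Cyp7b1, which hydroxylates oxysterols and was dim in the control channel of array 1, averaged 1.84. Ephx2, an epoxide hydrolase that is not specific to sterols, averaged 1.45. The transgenic signal of Cyp7b1 was 1.85 times the lowest control signal classed well above background, which is no strict lower bound. Hsd3b7 lay at 0.74 and Cyp39a1 at -0.18. With spike-in centring, and likewise with normexp and loess, 0 uptake genes and 1 gene of the oxysterol list were 2-fold higher. With spike-in centring 1 LXR target was 1.5-fold higher and 1 lower.

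**Figure D3:**
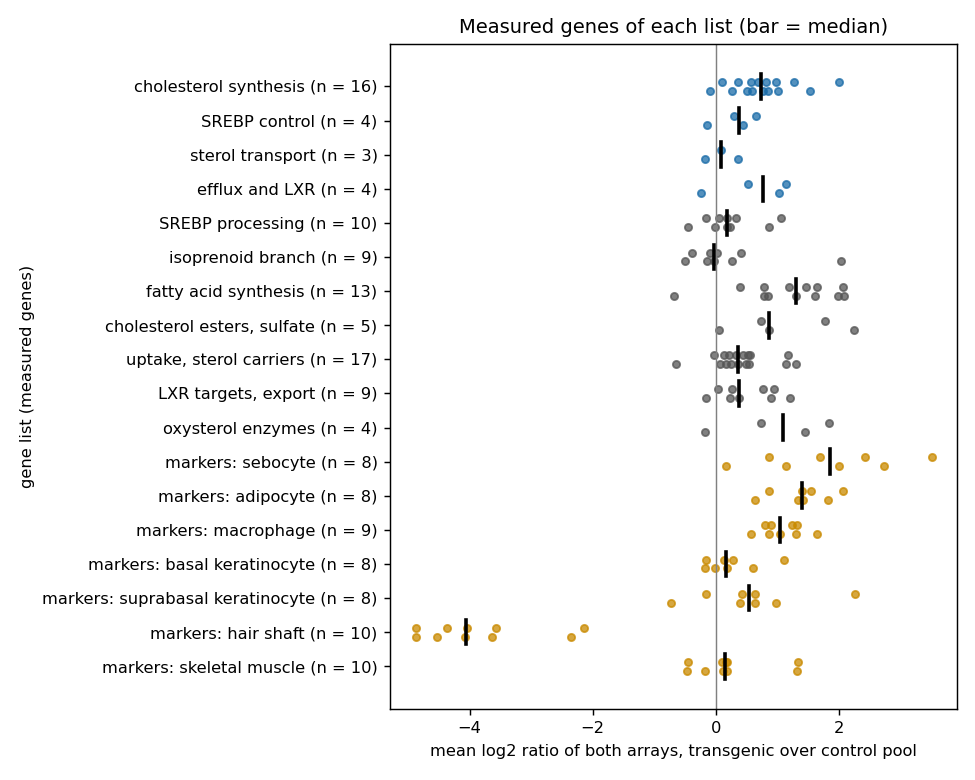
Mean log2 ratio of both arrays, transgenic over control pool (x axis), for the measured genes of each list (y axis): points are genes, black bars medians, blue the cholesterol members, grey other lipid lists and orange cell type markers. Cholesterol synthesis has a median of 0.73, fatty acid synthesis 1.30, sebocyte markers 1.85 and hair shaft markers -4.06. Centring on the spike-ins would lower every point by 0.47, putting the medians of SREBP control, sterol transport, SREBP processing, uptake genes, LXR targets, basal keratinocyte and skeletal muscle markers below 0.

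Skin holds many cell types, and markers of several moved with the members. Sebocyte markers had 6 of 8 measured genes 2-fold higher, among 14 listed, with a median of 1.85 and a summed signal on array 1 of 74141 in the transgenic and 18692 in the control channel. Defb6 averaged 3.51, Fa2h 2.74, Cidea 2.43 and Elovl3 2.01, while Mc5r, Awat2, Scd3 and Far2 were among the listed genes not well above background. Adipocyte markers had 6 of 8 measured genes 2-fold higher, a median of 1.41 and summed signals of 412343 in the transgenic and 150620 in the control channel. With spike-in centring 3 of these 8 were 2-fold higher. Macrophage markers had 4 of 9 measured genes 2-fold higher, a median of 1.04 and summed signals of 29464 and 12689 in the transgenic and control channels. Of these 4, C1qa and Mpeg1 had dim control channels. The transgenic signal of C1qa was 1.76 times the lowest control signal classed well above background, which is no strict lower bound. With spike-in centring 1 of the 9 was 2-fold higher, as with normexp and loess, where 2 were 1.5-fold higher.

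Basal keratinocyte markers had 1 of 8 2-fold higher and a median of 0.16, with summed signals of 258012 in the transgenic and 191379 in the control channel. Suprabasal markers also had 1 of 8 2-fold higher, with a median of 0.54 and summed signals of 334743 in the transgenic and 210060 in the control channel. Hair shaft markers had 10 of 10 measured genes 2-fold lower, with summed signals of 10836 in the transgenic and 96119 in the control channel. Skeletal muscle markers had 2 of 10 2-fold higher and a median of 0.15. With spike-in centring 0 basal and 0 muscle markers were 2-fold higher, and 1 suprabasal marker was 2-fold lower. The part of these cell types in the ratios of the cholesterol genes was not tested, and in whole skin more cells of a type and more RNA per cell cannot be told apart.

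**Figure D4:**
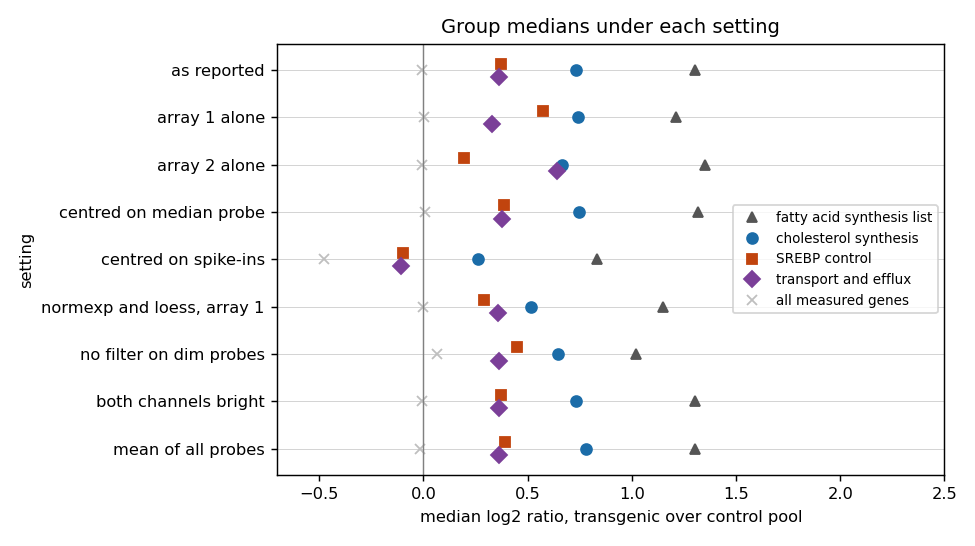
Median log2 ratio of the transgenic over the control pool (x axis) under each processing setting (y axis) for the 3 groups of members, the fatty acid synthesis list and all measured genes. The synthesis median stays between 0.26 and 0.78, and centring on the spike-ins puts the other 2 member groups at about -0.10 and all genes at -0.48.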

How the data were processed

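Total RNA from skin, 500 ng per labelling, was amplified and labelled, per the labels' protocols, for 2 Agilent arrays. The deposited scanner file of array 1 gives spot intensity values, made with Agilent Feature Extraction 9.5.1.1. Per the file headers and columns, a fitted spatial surface was subtracted as background, dyes were normalised by a linear factor and LOWESS, and surrogates replaced dim values, which can compress ratios. The deposited value table holds 1 log10 ratio column per array. Column 1 matched log10 of processed Cy5 over Cy3 at 43790 of 43790 features within 1e-06. For array 2 the sign was set from the label of the channel that held the transgenic RNA. That its column had not already been turned was read from the data: over 41534 features that are not controls the columns correlated at -0.579, as with exchanged dyes. Its unit was taken to be that of column 1. The column medians were 0.0145 and -0.0243, so neither was centred. Array 2 was read from this table alone.

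Ratios were converted to log2 of transgenic over control, with the sign of array 2 turned, and averaged. Control spots and 29 outlier spots were left out, as no other spot was saturated (0). A gene was represented by its brightest probe among those well above background in either channel on array 1. Genes were named through RefSeq (GRCm38.p6) by accession, symbol or synonym, except 8072 probes that kept the array's name, and coordinates of probes are those of the design, on mm8. All members are accounted for, and each other list names up to 4 measured genes with the largest absolute mean, except Scd2, named after its value was seen. Calls are by size: 2-fold or 1.5-fold the same way on each array. Feature Extraction's error of the array 1 log2 ratio was 0.21 to 0.30 for the 27 measured members. Over 16 probes printed 10 times the median SD between prints was 0.09 (array 1) and 0.08 (array 2) in log2 units, and the number of arrays limits the precision. The members and lists were chosen with earlier results of these data known. Calls were tested on simulated data whose planted changes were all larger than 2-fold, so changes near the 1.5-fold rule were not simulated. limma 3.58.1 gave normexp (offset 50) and loess values of array 1. Alternatives covered single arrays, centring, background correction, the filter on dim probes and the choice of probe.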

Additional observations from a re-analysis of the deposited data

How the results depend on the processing

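No paired analysis was possible because the arrays are counted as 1 pair of pools, and no test between the pools was run. From array 1 and array 2 alone, 5 and 5 members were 2-fold higher, against 5.43% and 4.97% of all genes. Cyp51 and Abca1 joined on array 1, Pmvk and Nr1h3 on array 2. At 1.5-fold 14 and 15 were higher, against 12.7% and 11.7%, and 4 and 4 were below 0, against 49.9% and 50.5%. The medians from single arrays were 0.67 to 0.74 for synthesis, 0.19 to 0.57 for SREBP control and 0.33 to 0.64 for transport and efflux. With normexp and loess on array 1, 7 members were 1.5-fold higher, against 3.22% of all genes. Idi1 and Msmo1 were the 2 at 2-fold, against 1.02%, and the synthesis median was 0.51. Centred on the spike-ins, 3 members were 1.5-fold higher, against 3.34% of all genes, and Mvd and Msmo1 were the 2 at 2-fold, against 1.64%. On both arrays 8 were below 0, against 77.5%. The synthesis median was then 0.26, and the medians of SREBP control and of transport and efflux turned to -0.095 and -0.11. Without the filter on dim probes the synthesis median was 0.65 over 18 genes. The other settings left the counts within 1.5 times. The 12 members called 1.5-fold higher stayed above 0 on both arrays under every setting run that measured them, the 1 exception to measurement being Nr1h3 where both channels had to be bright. For single arrays and for both ways of centring, the 1.5-fold rule fixed this outcome in advance. Changes of the filter on dim probes left the values of these members as they were, where measured. Only normexp with loess and the mean of probes could have altered the outcome. Causes of these shifts were not tested. Signal limits the rest: 3 members were not measured.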
